A study of Mus musculus with 8 samples.

Results

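The genes described here are 7 genes of cholesterol synthesis and its control, chosen by name: Hmgcs1, Sqle, Fdft1, Cyp51, Dhcr7, Srebf2 and Insig1. All are known targets or parts of the SREBP2 pathway. Of the 7, 6 were found among the 37310 gene identifiers of the count tables, and all 6 passed the filter on low counts that left 14970 genes to be tested. The row of Hmgcs1 could not be matched by its identifier, so its RNA level is not analysed here. RNA came from pools of mouse embryos of the C57BL/6N strain at the 2-cell stage, when oocyte transcripts are being replaced by the embryo's own. In one group the embryos were wild-type, and in the other they carried knockout alleles of both Gadd45a and Gadd45b, small stress-inducible proteins (double knockout, DKO). Each group had 4 pools, of 23 to 30 embryos in the wild-type and 23 to 35 in the DKO, each pool from 1 litter. Females of 3 to 4 weeks were superovulated and mated naturally, and embryos were taken 20 h after the plug was seen. The mothers had the genotype of their embryos, so loss of the maternal and of the embryonic gene products cannot be told apart.

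Animal cells obtain cholesterol by making it from acetyl-CoA or by taking up lipoproteins. When membranes of the endoplasmic reticulum are poor in sterol, the escort protein SCAP carries the membrane-bound transcription factor SREBP2, encoded by Srebf2, to the Golgi, where proteases release its active part. That part switches on the genes of synthesis and uptake, while INSIG proteins hold SCAP back when sterol is plentiful. Mouse oocytes are known to make little cholesterol themselves and to receive it from the cumulus cells around them. None of the 7 genes encodes an uptake receptor. Uptake is therefore described from further genes of the pathway.

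RefSeq promoters, 250 bases before to 50 bases after a start site on GRCm38.p6, were at hand for 5 of the 7 genes, in 7 windows because Dhcr7 has 3. Fdft1 and Sqle had no entry. On both strands, the windows were searched for 2 spellings of the sterol regulatory element, TCACNCCAC and TCACCNCA, which overlap each other where both match. Of the 2 spellings, TCACCNCA matched 3 of the 7 windows (Hmgcs1, Srebf2 and Cyp51), against 4.42% of 32851 promoters of the same length. The longer TCACNCCAC matched 1, that of Hmgcs1, against 1.24%. The inverted CCAAT box bound by NF-Y, a known partner of SREBP, was searched for as CCAAT and matched 5 of 7 windows, against 37.4%. An E-box, CACGTG, matched 2 of 7, in Dhcr7 and Insig1, against 7.15%. A match describes the letters only and is not a bound site.

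The promoters of Cyp51 and Srebf2 are shown because, among the genes with a measured level, these are the 2 whose windows held a spelling of the sterol regulatory element, given in capitals. In Cyp51, on the minus strand of chr5:4104648-4104947, TCACCTCA begins 88 bases before the start site. In Srebf2, on the plus strand of chr15:82147019-82147318, TCACCCCA begins 162 bases before it.
Cyp51: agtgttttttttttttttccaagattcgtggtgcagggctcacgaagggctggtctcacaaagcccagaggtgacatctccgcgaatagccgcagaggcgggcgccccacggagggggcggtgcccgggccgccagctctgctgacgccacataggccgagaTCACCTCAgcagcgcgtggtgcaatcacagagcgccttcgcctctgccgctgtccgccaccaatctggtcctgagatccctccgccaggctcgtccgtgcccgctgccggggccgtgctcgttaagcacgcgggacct
Srebf2: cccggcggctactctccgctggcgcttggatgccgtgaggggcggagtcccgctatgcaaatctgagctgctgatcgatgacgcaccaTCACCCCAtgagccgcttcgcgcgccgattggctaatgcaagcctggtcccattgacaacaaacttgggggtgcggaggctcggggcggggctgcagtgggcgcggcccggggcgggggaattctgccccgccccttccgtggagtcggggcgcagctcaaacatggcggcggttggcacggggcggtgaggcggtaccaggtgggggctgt

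The 8 libraries held 21329736 to 23919114 counts and 18433 to 20427 detected genes. Levels are given in CPM, counts scaled to the size of the library, after TMM scaling, a correction for differences in library composition. Gadd45b, one of the knocked-out genes, was at 36.1 to 62.3 CPM in the wild-type and 0.0442 to 0.615 CPM in the DKO libraries. Gadd45a was at 15.7 to 22.4 and 7.21 to 10.8 CPM. The remaining Gadd45a counts do not check the label further, since the labels do not say which exons the allele lacks. DKO replicate 1 stood apart, with a limma sample quality weight of 0.365 against 0.786 to 2.08 in the other libraries. All 8 oocyte and 2-cell markers were present in every library, with summed levels of 1909 to 2893 CPM in the wild-type and 2461 to 3956 CPM in the DKO libraries. Of these, Oosp1 was highest. The summed level of 16 cumulus and granulosa cell markers was 39.7 to 51.6 CPM in the wild-type and 37.3 to 55.1 CPM in the DKO libraries. Amhr2 was highest, with means of 25.1 CPM in the wild-type and 24.3 CPM in the DKO. Kitl followed at 10.7 and 10.4 CPM and Tnfaip6 at 7.94 and 8.75 CPM, all with counts in every library. The other markers were lower, and Ptx3, Amh, Foxl2 and Inhba were at 0 counts in all 8. Blood markers, mainly Hba-a1, summed to 58.5 CPM in wild-type replicate 1 and 79.2 CPM in DKO replicate 4, against 1.61 to 3.17 CPM in the others. Oviduct markers, mainly Ovgp1, summed to 61.0 CPM in wild-type replicate 1 and 3.67 to 17.7 CPM elsewhere. Sperm markers, of which Odf1 was highest, summed to at most 2.37 CPM.

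No cholesterol gene passed the test between genotypes. Of the 6 members measured, 0 passed an adjusted p of 0.05 with edgeR's quasi-likelihood test, where 0.0267% of all genes tested did (0.02% lower in DKO). DESeq2 called 0 of the 6 too, against 0.267% of its genes. With limma-voom 0 of the 6 passed, and 5 of all 14970 genes tested did. Gadd45a, a knocked-out gene estimated at 0.471 of its wild-type level, did not pass in edgeR (adjusted p = 0.303) or limma-voom (adjusted p = 0.137). DESeq2 called it (adjusted p = 0.00084). A gene that was not called may therefore still differ. With no adjustment, 1 of the 6 was lower in DKO at an edgeR p under 0.05 and 0 were higher. The shares over all genes were 4.44% lower and 5.79% higher, 10.2% in all. In 1 of the 6, Fdft1, all DKO libraries lay below all wild-type libraries. Over all genes, 2.55% lay below in this way, 2.79% above and 5.34% in either direction. The log2 fold change, DKO minus wild-type, was above 0 in 4 members and below 0 in 2, with a median of 0.04, and the median over all genes was 0.01. With library size alone as the scaling Srebf2 too was above 0, at 0.0091.

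**Figure D1:**
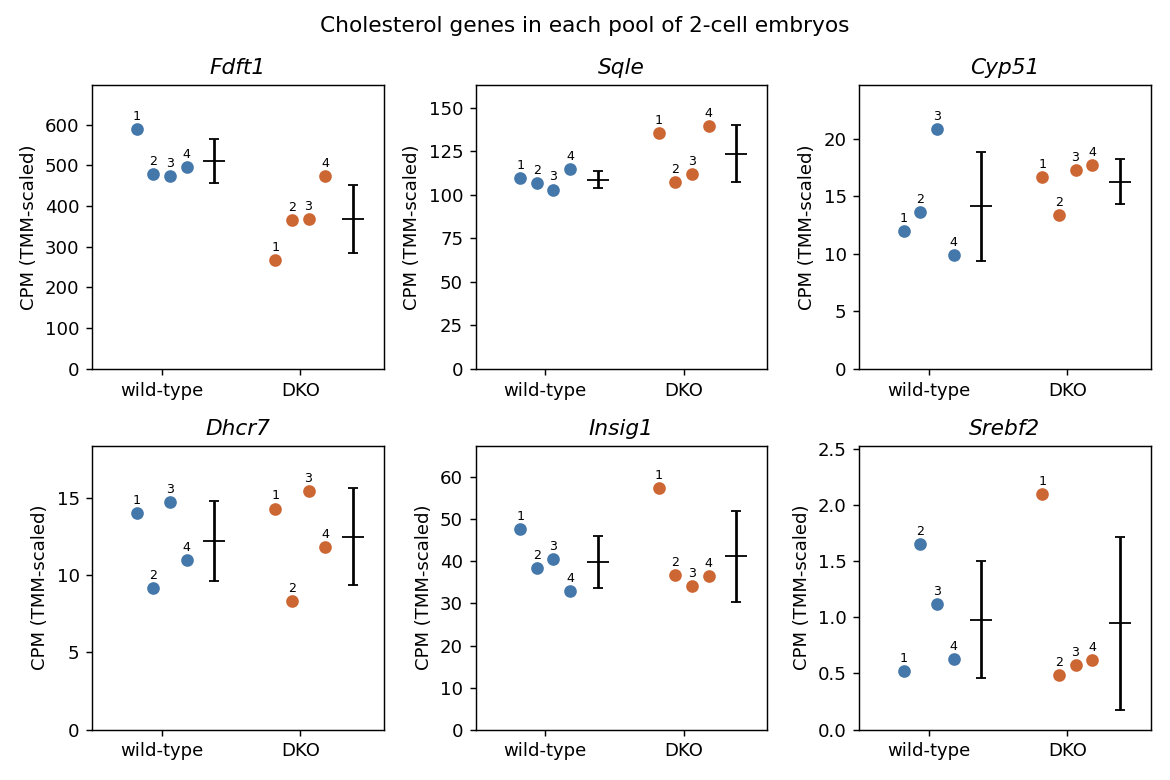
CPM of the 6 measured cholesterol genes in each library (points, numbered by replicate), with the mean and SD of each group of 4 beside them; each y axis starts at 0. In the Fdft1 panel the DKO points, 267 to 473 CPM, lie below the wild-type points, 475 to 590 CPM, and in the other panels the groups overlap.

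Per length of exon, the members spanned a wide range of levels. Fdft1 was highest at 103.9 CPM per kb (range over the 8 libraries 63.3 to 139.7), above 95.7% of all genes tested. Sqle followed at 20.9 CPM per kb (18.6 to 25.2) and Insig1 at 13.1 (10.6 to 18.5). Next came Cyp51 at 3.44 CPM per kb (2.25 to 4.73) and Dhcr7 at 2.12 (1.43 to 2.65). The level of Srebf2 was 0.134 CPM per kb (0.0673 to 0.292), above only 3.75% of genes. The transcript of the transcription factor was therefore the scarcest of the 6, and that of the squalene synthase the most abundant. The ranges of neighbours in this order overlapped only for Cyp51 and Dhcr7. Their order turned when the longest transcript was used as the length, to 3.86 CPM per kb for Cyp51 and 4.39 for Dhcr7.

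**Figure D2:**
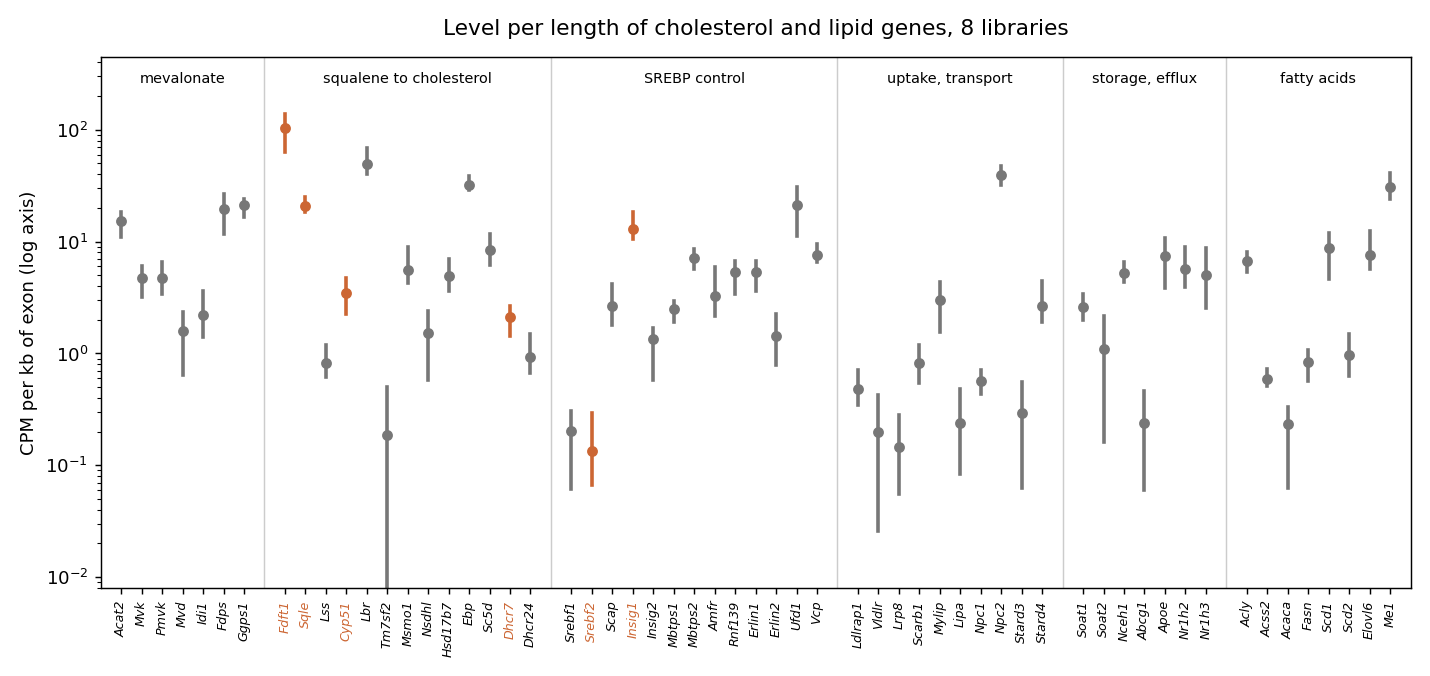
Level per length (CPM per kb of exon, log axis) of the tested genes of 6 cholesterol and lipid lists; points are means over 8 libraries, bars the lowest to highest library, and the measured members are in orange. Fdft1 stands at 103.9 and Srebf2 at 0.134 CPM per kb; the bar of Tm7sf2 runs off the axis because 1 library had 0 counts.

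Fdft1 encodes squalene synthase, which joins farnesyl pyrophosphate into squalene and so commits carbon to sterols. Its level in wild-type replicates 1 to 4 was 590, 480, 475 and 495 CPM, and in DKO replicates 1 to 4 it was 267, 365, 368 and 473 CPM. The groups did not overlap, but the highest DKO library, at 473 CPM, came close to the lowest wild-type library, at 475 CPM. The means were 510 ± 54.2 CPM in the wild-type and 368 ± 84.0 CPM in the DKO (SD, n = 4 each). The log2 fold change was −0.47 (SE 0.17, unadjusted 95% interval −0.84 to −0.10), with an adjusted p of 0.469 in edgeR, 0.309 in DESeq2 and 0.377 in limma-voom. The difference thus did not pass the test, and its p from edgeR before adjustment was 0.0158. The libraries at both ends moved the value. Without both libraries numbered 1 the log2 fold change was −0.26, with a p from edgeR of 0.0953 before adjustment, and without DKO replicate 1 alone it was −0.35. With library size alone as the scaling the groups overlapped, the highest DKO library being at 472 and the lowest wild-type library at 464 CPM. Without the 2 libraries with haemoglobin transcripts, wild-type replicate 1 and DKO replicate 4, the log2 fold change of Fdft1 was −0.54. DKO replicate 1, lowest for Fdft1, had the highest summed level of oocyte and 2-cell markers, and wild-type replicate 1, highest for Fdft1, the highest of oviduct markers. The part of these transcripts in the result was not tested.

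Reads of Fdft1 may be shared with other genes. In the GRCm38 annotation its exons overlap those of Ctsb, a lysosomal protease gene on the opposite strand, over 774 bases, and the labels and processing notes do not say whether counting used strand. Ctsb was at 551 ± 131 CPM in the wild-type and 437 ± 105 CPM in the DKO (SD, n = 4 each). On the log2 scale the difference was −0.33 (edgeR adjusted p = 0.557). The pseudogene Gm6781, 97.4% identical to Fdft1 over 1249 bases, was at 1.44 and 0.831 CPM. What part Ctsb reads have in the Fdft1 level was not tested.

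Sqle encodes squalene epoxidase, which adds the first oxygen and is a known rate-limiting step after squalene. Its level was 109, 107, 103 and 115 CPM in wild-type replicates 1 to 4 and 136, 108, 112 and 140 CPM in DKO replicates 1 to 4. The wild-type libraries lay close together, and 2 of the DKO libraries, 1 and 4, lay above them all. The log2 fold change was 0.19 (SE 0.14, interval −0.12 to 0.49, edgeR adjusted p = 0.623). Sqle was also steady within the groups, with a within-group SD of 0.143 log2 CPM. Of 1182 genes of like level, 13.6% had a smaller one, and their median SD was 0.238. The other 5 members stood at the 52.6th to 60.8th percentile of genes of their own level. With library size alone as the scaling, all DKO libraries of Sqle lay above all wild-type libraries, by 107.7 against 107.5 CPM at the closest.

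Fdft1 and Sqle catalyse adjoining steps, and their mean levels differed in opposite directions between the groups, neither past the test. The ratio of Fdft1 to Sqle counts, which does not depend on scaling, was 5.39, 4.49, 4.61 and 4.31 in wild-type replicates 1 to 4. In DKO replicates 1 to 4 it was 1.97, 3.39, 3.29 and 3.39. Each DKO pool thus held fewer Fdft1 reads per Sqle read than each wild-type pool. This ratio was chosen after the values were seen and is given without a test. Fdft1 alone already separated the groups after TMM scaling. The share of other gene pairs whose ratio separates the groups was not computed.

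Cyp51 encodes lanosterol 14-alpha-demethylase. It was at 12.003, 13.7, 20.9 and 9.92 CPM in wild-type replicates 1 to 4 and 16.7, 13.4, 17.2 and 17.7 CPM in DKO replicates 1 to 4. The wild-type range enclosed all DKO values. Its log2 fold change was 0.20 (SE 0.24, interval −0.31 to 0.72, edgeR adjusted p = 0.760). It was 0.45 without wild-type replicate 3 and 0.062 without wild-type replicate 4. Cyp51 shares 166 exonic bases with Akap9 on the opposite strand, which was at 28.2 and 32.9 CPM.

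Dhcr7 encodes 7-dehydrocholesterol reductase, the last step of one branch of the pathway. It was at 14.0, 9.19, 14.7 and 11.0 CPM in wild-type replicates 1 to 4 and 14.3, 8.35, 15.4 and 11.8 CPM in DKO replicates 1 to 4. The groups overlapped over nearly their whole ranges. DKO minus wild-type was 0.03 on the log2 scale (SE 0.25, interval −0.50 to 0.56, edgeR adjusted p = 0.974).

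Insig1 encodes a sterol-dependent anchor of SCAP and is itself a target of SREBP2. Its level was 47.7, 38.3, 40.5 and 32.9 CPM in wild-type replicates 1 to 4 and 57.4, 36.8, 34.1 and 36.5 CPM in DKO replicates 1 to 4. DKO replicate 1 was highest of the 8, and the other 3 DKO libraries lay inside the wild-type range. On the log2 scale the difference was 0.05 (SE 0.20, interval −0.38 to 0.47, edgeR adjusted p = 0.945), and without both libraries numbered 1 it was −0.06.

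Srebf2 was near the limit of counting, with 87 counts over the 4 wild-type and 85 over the 4 DKO libraries. It was at 0.518, 1.65, 1.12 and 0.626 CPM in wild-type replicates 1 to 4 and 2.10, 0.483, 0.575 and 0.623 CPM in DKO replicates 1 to 4. DKO replicate 1 was highest of the 8, and the other DKO libraries, 0.483 to 0.623 CPM, lay below or among the lower wild-type ones. On the log2 scale the difference was −0.05 (SE 0.63, interval −1.39 to 1.29, edgeR adjusted p = 0.982), an interval that includes 2-fold differences in both directions. Without DKO replicate 1 the value was −0.80, and without wild-type replicate 2 it was 0.33. For the other 5 members the interval lay within 2-fold. In bulk RNA of pools, fewer embryos or cells expressing a gene and less RNA per cell cannot be told apart.

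The remaining genes of the pathway came from 6 lists of 60 genes in all, of which 59 were matched and 58 tested. Of these, 0 were called by edgeR, DESeq2 or limma-voom. Over all genes, edgeR called 0.0267%, DESeq2 0.267% and limma-voom 5 of 14970. With p from edgeR under 0.05 before adjustment, 5 were lower and 2 higher in DKO, where 4.44% and 5.79% of all genes were. In 4 genes the DKO libraries lay below all wild-type libraries and in 1 above, against 2.55% and 2.79% of all genes. The log2 fold change was above 0 in 26 and below 0 in 32, with a median of −0.05. These counts include the members.

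**Figure D3:**
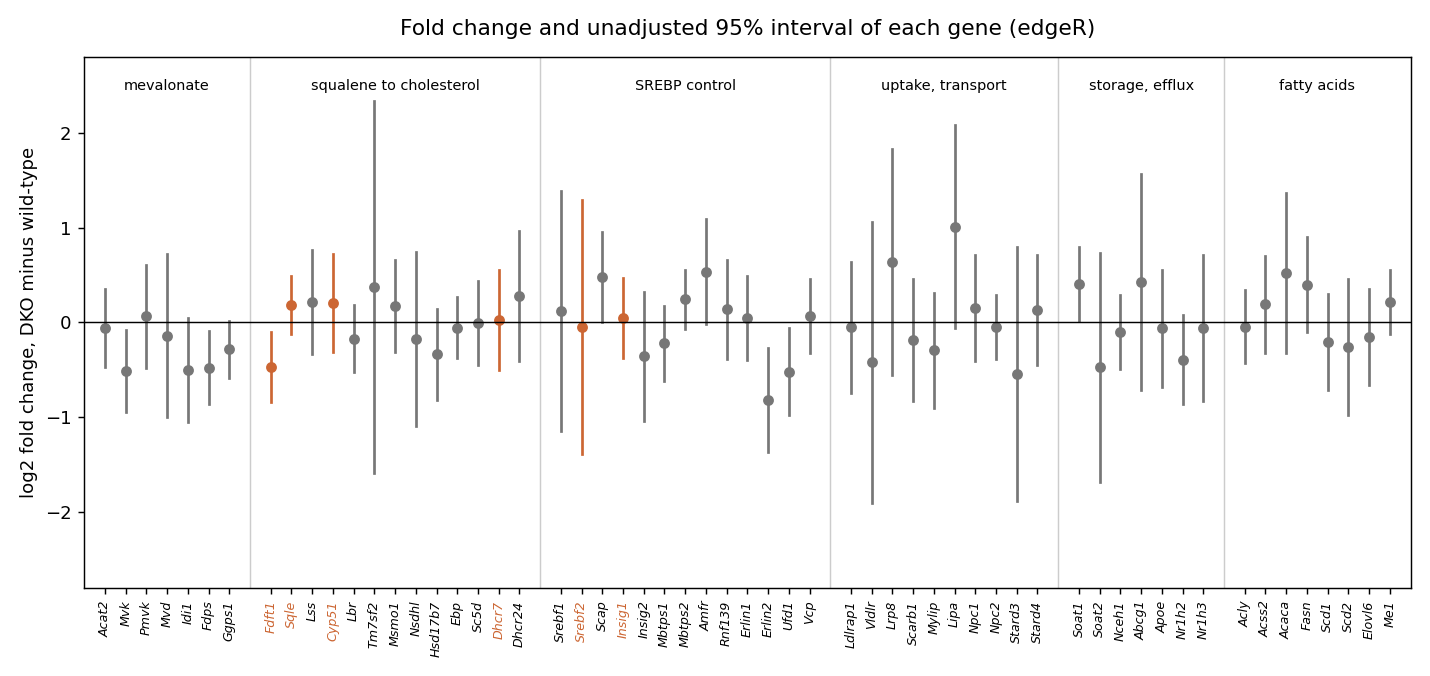
Log2 fold change, DKO minus wild-type, of the tested genes of the 6 lists (points) with unadjusted 95% intervals from edgeR (bars, 4 libraries per group); measured members are in orange. Most intervals cross 0, and none of the genes passed an adjusted p of 0.05.

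The mevalonate steps, from acetoacetyl-CoA to the isoprenoids before squalene, had 6 of 7 tested genes below 0 and 1 above, with a median log2 fold change of −0.29, where 48.8% of all genes were below 0 and their median was 0.01. Of these, 2 were lower and 0 higher at an unadjusted p under 0.05, against 4.44% and 5.79% of all genes. Fdps, which makes farnesyl pyrophosphate, the substrate of Fdft1, was at 112, 88.2, 93.6 and 86.0 CPM in the wild-type and 49.6, 65.0, 89.6 and 68.6 CPM in the DKO replicates. Its DKO replicate 3 lay inside the wild-type range, and its log2 fold change was −0.48 (adjusted p = 0.469 in edgeR, SE 0.18). As with Fdft1, wild-type replicate 1 was highest and DKO replicate 1 lowest, and without both the value was −0.26. Mvk, mevalonate kinase, was at 15.2, 16.2, 15.2 and 13.1 CPM in the wild-type and 11.2, 8.52, 11.0 and 11.0 CPM in the DKO replicates. Its groups did not overlap under any of the 4 scalings, with a log2 fold change of −0.51 (adjusted p = 0.469 in edgeR, SE 0.20).

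Ggps1, which makes geranylgeranyl pyrophosphate and was the most abundant of this list at 21.2 CPM per kb, was at 107, 115, 110 and 108 CPM in the wild-type. In the DKO replicates it was at 79.1, 84.5, 94.4 and 103 CPM, below the wild-type libraries except with library size alone as the scaling. Its log2 fold change was −0.29 (adjusted p = 0.489 in edgeR, SE 0.14). Mvd, mevalonate pyrophosphate decarboxylase, was the least abundant per length at 1.58 CPM per kb, with a log2 fold change of −0.14 (adjusted p = 0.913 in edgeR, SE 0.40). Pmvk, phosphomevalonate kinase, was the 1 gene above 0, with a log2 fold change of 0.06 (edgeR adjusted p = 0.944). The summed level of the 7 genes was 270.2 to 286 CPM in the wild-type and 187 to 255 CPM in the DKO libraries, of which Ggps1 and Fdps made up the larger share. For the members and for every other list, the summed levels of the groups overlapped. The share of other gene sets whose sums separate the groups was not computed. Mvk and Ggps1 were named after their values were seen.

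**Figure D4:**
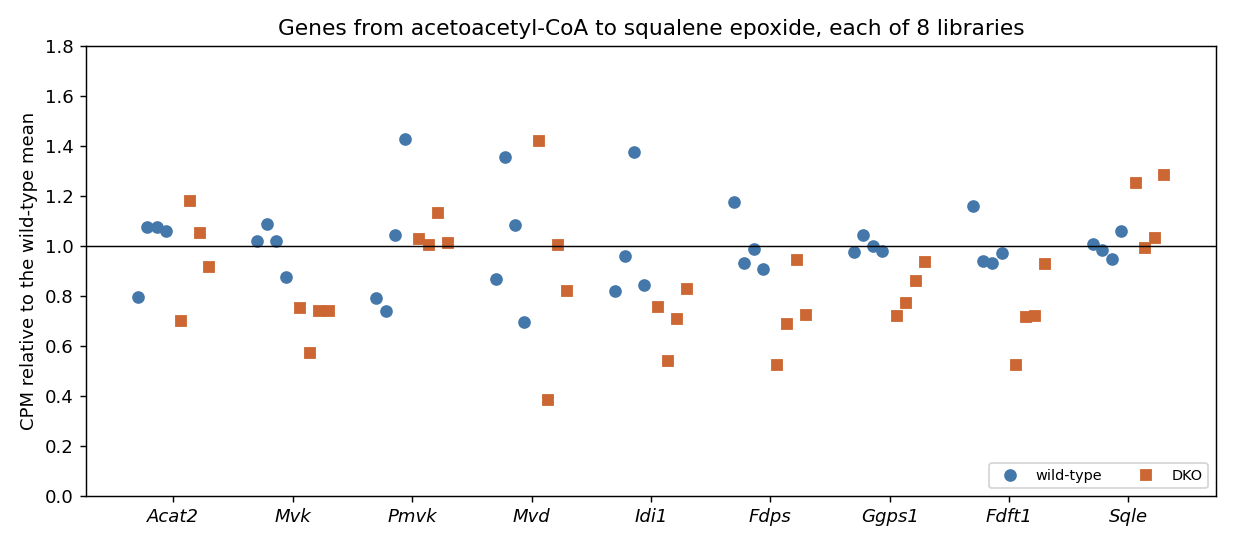
CPM of each library relative to the wild-type mean for the tested genes of the mevalonate list, followed by Fdft1 and Sqle. Circles are wild-type and squares DKO libraries, in the order of replicates 1 to 4. For Mvk, Ggps1 and Fdft1 the squares lie below the circles (Mvk 0.572 to 0.750 against 0.876 to 1.09), and for Sqle they lie at 0.991 to 1.29 against 0.949 to 1.06.

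The steps from squalene to cholesterol had 7 of 13 tested genes above 0 and 6 below, with a median log2 fold change of 0.03. Fdft1 was the 1 gene of the 13 with an unadjusted p under 0.05, where 10.2% of all genes had one. Its level per length was also the highest of the list, and that of Tm7sf2, a sterol reductase gene, was the lowest at 0.188 CPM per kb.

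The genes of SREBP control had 8 of 13 above 0 and 5 below, with a median of 0.05. At an unadjusted p under 0.05, 2 were lower and 1 higher, against 4.44% and 5.79% of all genes. Scap, the escort of SREBP2, was at 13.5, 18.5, 19.8 and 14.9 CPM in the wild-type and 31.3, 23.3, 17.3 and 21.046 CPM in the DKO replicates. The groups overlapped, with DKO replicate 1 far above the rest, and the log2 fold change was 0.48 (adjusted p = 0.484 in edgeR, SE 0.22). Without DKO replicate 1 it was 0.30, and without both libraries numbered 1 it was 0.21. Erlin2, an endoplasmic reticulum protein that takes part in the degradation of proteins of that membrane, was at 9.93, 13.2, 7.82 and 11.5 CPM in the wild-type and 4.60, 7.82, 5.88 and 5.74 CPM in the DKO replicates. Its groups touched, overlapping under RLE scaling, and its log2 fold change of −0.82 (adjusted p = 0.469 in edgeR, SE 0.26) had the smallest unadjusted p of the 58 genes, 0.00614. It was between −0.98 and −0.70 in all alternatives that tested it.

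Ufd1, a cofactor of the ATPase that pulls proteins out for degradation and the most abundant of these genes at 21.2 CPM per kb, was at 108 ± 21.7 CPM in the wild-type and 75.5 ± 22.6 CPM in the DKO (SD, n = 4 each); the groups overlapped, with a log2 fold change of −0.52 (edgeR adjusted p = 0.471). Mbtps2, the site-2 protease that releases SREBP, was at 57.9 to 70.6 CPM in the wild-type and 73.9 to 86.9 CPM in the DKO libraries, without overlap under any of the 4 scalings, and its log2 fold change was 0.24 (adjusted p = 0.545 in edgeR, SE 0.14). Insig2, the second INSIG gene, was at 5.23 ± 0.662 and 4.08 ± 1.40 CPM (SD, n = 4 each), a log2 difference of −0.36 (adjusted p = 0.675 in edgeR, SE 0.32), which was −0.13 without DKO replicate 4. Srebf1, encoding the SREBP that mainly serves fatty acid genes, was also scarce, at 1.09 and 1.184 CPM (edgeR adjusted p = 0.953). Mbtps2 was named after its values were seen, and Ufd1 for its difference likewise.

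Of the 10 uptake and transport genes tested, 4 were above 0 and 6 below, with a median of −0.05. At an unadjusted p under 0.05 there were 0, against 10.2% of all genes. The least abundant per length was Lrp8, a lipoprotein receptor gene, at 0.146 CPM per kb, above 4.38% of genes. It had 108 counts over the wild-type and 169 over the DKO libraries, and its log2 fold change was 0.63 (interval −0.56 to 1.83, adjusted p = 0.674 in edgeR). The interval includes a 2-fold difference upwards. Npc2, which hands cholesterol on inside lysosomes, was the most abundant at 39.7 CPM per kb, and its membrane partner Npc1 was at 6.08 and 6.75 CPM, with a log2 fold change of 0.15 (edgeR adjusted p = 0.839). With 1 library left out, the value of Npc1 ran from 0.053 without DKO replicate 4 to 0.278 without DKO replicate 2.

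Lipa, the lysosomal acid lipase that frees cholesterol from its esters, had the smallest p of the uptake genes above 0. It was at 0.561, 1.79, 0.670 and 1.30 CPM in the wild-type and 1.61, 2.59, 1.19 and 3.29 CPM in the DKO replicates, with overlap. The log2 fold change was 1.01 (adjusted p = 0.492 in edgeR, SE 0.50), and 0.52 without the 2 libraries with haemoglobin transcripts. Mylip, a ubiquitin ligase that degrades lipoprotein receptors, had the smallest p of those below 0, with a log2 fold change of −0.30 (edgeR adjusted p = 0.706). It was −0.52 without DKO replicate 1, −0.15 without wild-type replicate 3 and −0.10 without DKO replicate 2.

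Storage and efflux genes had 2 of 7 tested above 0 and 5 below, with a median of −0.06, and Abca1, a cholesterol exporter, did not pass the filter on low counts. At an unadjusted edgeR p under 0.05, 1 gene, Soat1, was higher and 0 were lower, against 5.79% and 4.44% of all genes. Soat1, which esterifies cholesterol for storage, was at 21.8, 20.4, 19.5 and 25.6 CPM in the wild-type and 24.1, 26.7, 33.5 and 31.1 CPM in the DKO replicates. One DKO library lay below the highest wild-type library, and the log2 fold change was 0.40 (adjusted p = 0.481 in edgeR, SE 0.18). Nr1h2, a sterol-sensing nuclear receptor gene, had a log2 fold change of −0.39 (edgeR adjusted p = 0.525), and −0.20 without wild-type replicate 1. Apoe, a lipoprotein component, was the most abundant at 7.41 CPM per kb and Abcg1, an exporter, the least at 0.240.

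The 8 fatty acid genes controlled by SREBP1 had 4 above 0 and 4 below, with a median of 0.07. At an unadjusted p under 0.05 there were 0, against 10.2% of all genes. Fasn, fatty acid synthase, was at 7.89 ± 1.38 and 10.4 ± 1.66 CPM (SD, n = 4 each), a log2 difference of 0.40 (edgeR adjusted p = 0.542). Scd1, a desaturase gene, had a log2 fold change of −0.21 (edgeR adjusted p = 0.751), which was −0.02 without DKO replicate 1 and −0.36 without DKO replicate 4. Me1, malic enzyme, was the most abundant at 30.9 CPM per kb and Acaca, acetyl-CoA carboxylase, the least at 0.236.

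The genes whose profiles over the 8 libraries were most like those of the members came from outside the lists. The lists do not hold every gene of cholesterol synthesis. Likeness was the root mean square difference of log2 CPM centred on each gene's mean, among about 7842 genes whose mean log2 CPM was 3 or more. For Fdft1, the nearest were E130309D02Rik at 0.082 and Pym1 at 0.083, where the median over all genes compared was 0.388. Those nearest to Sqle were Cnpy4 at 0.053 and Sh3kbp1 at 0.057. Usp17lc (0.104) and Tm2d2 (0.115) were nearest to Cyp51, Plekha5 (0.093) and 3830406C13Rik (0.112) to Dhcr7, and Cdc42se2 (0.077) and Erg28 (0.087) to Insig1. For Srebf2 the nearest were Klhl13 at 0.350 and Mospd2 at 0.352, where the median over all genes compared was 0.752. The SD of Srebf2 itself was 0.745 log2 CPM. With a mean log2 CPM of −0.11, Srebf2 lay below the limit of 3 and could not be chosen for another member. None of the other members was among the 2 nearest profiles of another. As only 2 of about 7842 genes were kept for each member, this does not show whether the members vary together.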

How the data were processed

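RNA-seq of 8 pools was used. The deposited values are whole-number read counts per gene, not normalized; per the submitters' processing notes the authors' tools included STAR 2.5.2b and, for counting, featureCounts 1.5.1, with builds NCBIM37 and mm9. Strand and multi-mapping settings are not given in the sources used here. Per the labels' protocols, cDNA and libraries were each amplified in 11 PCR cycles, so reads are not independent molecules. Symbols matched 32620 of 37310 identifiers. Lengths, overlaps and copies came from GENCODE on GRCm38.

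Counts of all genes were tested with edgeR 4.0.16 (filterByExpr, TMM, robust quasi-likelihood, Benjamini-Hochberg, threshold 0.05; R 4.3.3), without covariates; the script was tested on simulated data. The 95% intervals are unadjusted, and the prior count of log2 CPM was 2. Alternatives were DESeq2 1.42.0, limma 3.58.1 voom, scalings, filters, a replicate block, embryos per pool and libraries left out. Pools are separate litters. Counts of every pair within a group differed more than independent reads would (chi-square per degree of freedom at least 24.0). As amplified reads are not independent, this value does not separate differences between pools from technical spread.

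Members and lists were chosen with earlier results of these data known. Named genes are the members, Insig2, Scap, Srebf1, Npc1, the knocked-out genes, the smallest p in each direction and the extreme levels per length of each list, the 2 nearest profiles of each member and the highest marker. Some genes of the lists of mevalonate steps and of uptake are not reported here, and counts, medians and sums of the lists leave them out.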

Additional observations from a re-analysis of the deposited data

Results flagged for a closer look

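In groups of 4, a library was picked out where its gap to the nearest other, over the group's range, exceeded Dixon's critical value for 95%. This was so in 4 of the 62 groups examined over 31 genes, and chance alone gives about 1 in 20. Srebf2 was at 2.10 CPM in DKO replicate 1 and 0.483 to 0.623 CPM in the other DKO libraries. Insig1 was at 57.4 CPM in DKO replicate 1, against 34.1 to 36.8 CPM. Me1 was at 157 CPM in the same library, against 115 to 121 CPM. Mvk was at 8.52 CPM in DKO replicate 2, against 11.0 to 11.2 CPM. Of the 4, 3 came from DKO replicate 1, the library with the lowest quality weight.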

How the results depend on the processing

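The count of members called was 0 in all 20 alternatives, and that of pathway genes likewise. The count over all genes was 4, and became 49 with DESeq2, 7 without a filter and 1 with a mean of at least 10 CPM; leaving out each library in turn gave 4 to 4. Of 428 values of 23 named fold changes, 404 kept their direction and side, 24 reversed and 0 passed an adjusted p of 0.05. Fdft1 ran from −0.62 without DKO replicate 4 to −0.26 without both libraries numbered 1, with a lowest adjusted p of 0.276, and Fdps from −0.63 to −0.26. With 1 library left out, values that changed sign ran from −0.0876 to 0.178 for Dhcr7, −0.80 to 0.33 for Srebf2, −0.16 to 0.14 for Insig1, −0.18 to 0.38 for Srebf1 and −0.0626 to 0.277 for Pmvk. Limma-voom reversed Insig1 (−0.0881), and library size alone Srebf2 (0.0091). Without both libraries numbered 1, reversed values were Insig1 −0.0558, Srebf1 −0.10, Pmvk −0.0257 and Scd1 0.0176; Srebf2 was −1.01. Without the 2 libraries with haemoglobin transcripts, chosen after seeing the data, it was Pmvk, at −0.0224. Longest-transcript lengths turned the log2 ratio of Cyp51 to Dhcr7 from 0.70 to −0.18. The cause was not tested.

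Replicate numbers were taken only as names of pools. Deviations of same-numbered libraries correlated at 0.00235 to 0.0780, and those of differently numbered ones at −0.190 to 0.224. Shared handling of libraries was not tested. With the replicate block 4 genes, 0 members and 0 pathway genes were called, and Fdft1 was −0.49 (edgeR adjusted p = 0.482). Low counts limit Srebf2.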
